A study of Mus musculus with 34 samples.

Results

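Lysine 20 of histone H4 is methylated in steps by different enzymes. Kmt5a (also called Setd8, Set8 or PR-Set7) places the first methyl group, and Kmt5b and Kmt5c (Suv420h1 and Suv420h2) add further groups to it. Phf8 is a demethylase that removes the monomethyl mark, and L3mbtl1 is a reader that binds lower methylated forms and compacts chromatin. The monomethyl mark is known for its role in mitosis, genome integrity and transcription, and Kmt5a protein is destroyed and rebuilt with each cell cycle. These 5 genes were taken by name, among 37583 genes with an mRNA value.

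The RNA came from livers of F1 mice (C57Bl6/CBA) aged 45 days. Wild-type animals (WT) were compared with Setd8lox/lox-Alb-Cre animals (KO), which carry a floxed exon 7 of the gene and express Cre from the albumin promoter, active in hepatocytes. Whether other liver cells keep the gene cannot be read from these data. The mRNA libraries numbered 3 of each genotype. For nascent RNA there was 1 library per genotype from each of 2 methods: in the first, ethynyl uridine (EU, 25 mg per kg, 30 min before the liver was taken) labels new RNA in the living animal, and in the other, bromouridine triphosphate (Br) is incorporated by isolated nuclei during a run-on of 3 min. The 24 chromatin samples of the study were left aside. Whether numbered replicates are separate animals is not in the labels, so p-values describe only how far libraries spread, which may be technical.

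WT replicate 3 stood apart, with 20077 genes above 0 against 24497 to 26247 in the other mRNA libraries, and results are given with and without it. Deposited mRNA values summed to between 18069344 and 25820906 per library. The WT and KO depths were 10833287 and 5583983 reads for EU and 3156055 and 2317840 reads for Br. The summed level of 8 hepatocyte markers, led by Alb, ran from 1834467 to 2908804 in WT and from 1831867 to 2093500 in KO. All 10 libraries held reads of the 4 Y-linked genes examined (Ddx3y, Kdm5d, Eif2s3y and Uty), with an Xist value of 12 to 88 in mRNA. In bulk liver, fewer cells of a type and less RNA per cell cannot be told apart.

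For Kmt5a itself the first question is whether the floxed allele can be seen in gene-level RNA. The longest coding transcript in GENCODE M21 (Kmt5a-201, 8 exons, 2739 bases) has its exon 7 at chr5:124459775-124459965 on the plus strand of GRCm38. That exon is 191 bases long, all of it coding, and makes up 6.97% of the transcript and 18.2% of its coding bases. Its length is not a multiple of 3, and it is in 7 of 13 annotated transcripts, including all 3 coding ones. The design text of the series calls the floxed exon number 7 without giving its position, and the exon of that number in this transcript is taken for it here. The first sequence below gives this exon in capitals between 24 bases of exon 6 and 24 of exon 8, since it is the part that Cre would remove. The other gives exon 6 joined directly to exon 8, with the first stop codon in the resulting frame in capitals.
Kmt5a exon 7 in place: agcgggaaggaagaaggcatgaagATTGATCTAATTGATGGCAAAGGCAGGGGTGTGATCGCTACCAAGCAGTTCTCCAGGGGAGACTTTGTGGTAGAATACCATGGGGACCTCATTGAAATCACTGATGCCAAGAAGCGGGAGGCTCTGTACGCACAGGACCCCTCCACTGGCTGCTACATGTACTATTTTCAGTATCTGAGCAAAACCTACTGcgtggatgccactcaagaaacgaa
Kmt5a exon 6 to exon 8: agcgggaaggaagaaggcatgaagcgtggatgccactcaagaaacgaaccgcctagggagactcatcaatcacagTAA

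In the joined sequence the stop lies 51 bases after the joint, and the reading frame is 234 codons long against 350 with exon 7. Exon 8 holds 66.5% of the transcript, most of it untranslated. A value summed over the whole gene therefore reads mainly other exons than the floxed one, and the files give no value per exon. Reads from exon 7 were not analysed here.

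**Figure D1:**
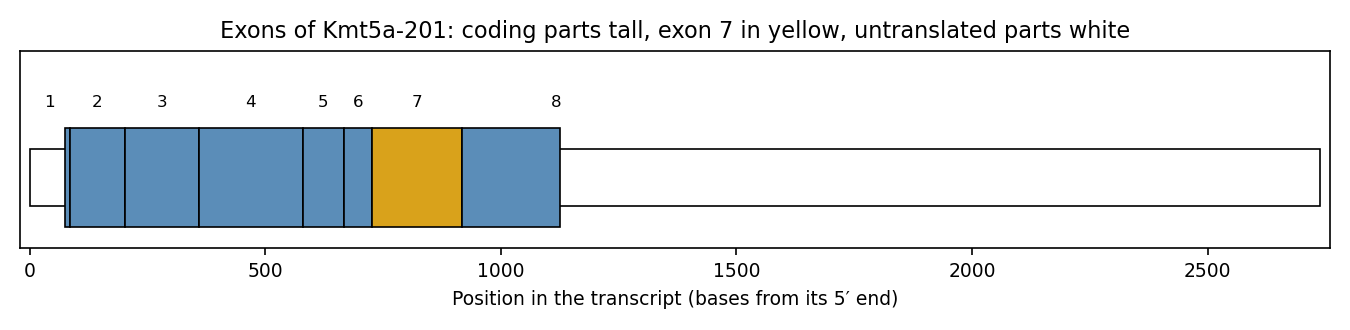
Exons 1 to 8 of the Kmt5a-201 transcript, drawn to scale along the spliced RNA in bases from its 5′ end, with coding parts tall and untranslated parts white. Exon 7, in yellow, is 191 of 2739 bases, and exon 8 carries 66.5% of the length.

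Kmt5a mRNA (ENSMUSG00000049327, chr5:124439930-124462308 in GRCm38) was not lower in KO. Its scaled values were 593, 615 and 1076 in the WT libraries and 1199, 1040 and 1075 in the KO libraries. The lower WT libraries, replicates 1 and 2, lay well under all KO libraries, while WT replicate 3 lay among them, so that the groups overlapped. KO exceeded WT by 0.59 on the log2 scale, with an SE of 0.25 (adjusted p = 0.244 by limma). When WT replicate 3 was left out, Kmt5a rose 1.82-fold, or 0.87 on the log2 scale with an SE of 0.16 (adjusted p = 0.0206 by limma). WT replicate 3 was 1.78-fold above the mean of the other WT libraries for this gene, and 33.2% of tested genes deviated more in that library.

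Kmt5c (ENSMUSG00000059851, chr7:4740115-4747514), which adds the further methyl groups mainly at heterochromatin, had non-overlapping groups in mRNA, higher in KO. Its values were 658, 550 and 561 in WT against 919, 761 and 897 in KO. Every KO library was above every WT library, as was the case for 13.2% of all tested genes. The log2 difference was 0.54 (SE 0.18, limma adjusted p = 0.147), and 0.51 without WT replicate 3 (limma adjusted p = 0.11). The gene did not pass the test with or without that library.

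Kmt5b (ENSMUSG00000045098, chr19:3767421-3818303), the broadly expressed partner of Kmt5c in making the higher methylated forms, had values of 506, 598 and 683 in WT against 619, 717 and 778 in KO. The groups overlapped, and the log2 difference was 0.25 (SE 0.19, limma adjusted p = 0.533), or 0.35 without WT replicate 3 (limma adjusted p = 0.25). An antisense gene, Gm16066, overlaps Kmt5b over 927 exonic bases and had mRNA values of 0 to 6.

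Phf8 (ENSMUSG00000041229, chrX:151520672-151633859), the demethylase, is X-linked. Its mRNA values were 266, 239 and 779 in WT against 220, 332 and 328 in KO. The high WT value is that of replicate 3, which was 3.08-fold above the other WT libraries, a deviation exceeded by 12.1% of tested genes. The log2 difference was -0.35 (SE 0.44, limma adjusted p = 0.721) and turned to 0.19 without that library (limma adjusted p = 0.639). No direction can be given for Phf8 mRNA.

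L3mbtl1 (ENSMUSG00000035576, chr2:162943472-162974522), the reader, was at the edge of detection, with values of 11, 8 and 0 in WT against 5, 4 and 9 in KO. It did not reach a value of 10 in 3 libraries and was not tested with the other genes. With no filter its log2 difference was 0.49 (SE 0.97, limma adjusted p = 0.882). A difference was not detectable at this depth.

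**Figure D2:**
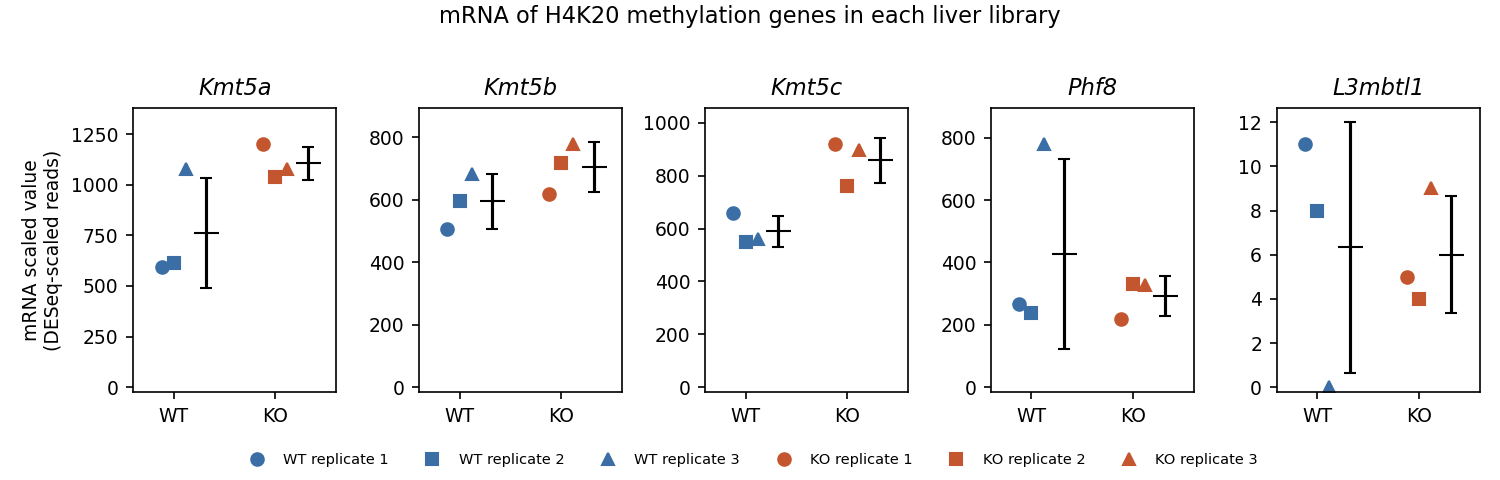
Deposited mRNA scaled values (vertical axes, DESeq-scaled reads, one scale per gene) in each of 3 WT and 3 KO libraries, with the group mean and SD as black bars. WT replicate 3 (blue triangle) is at 1076 for Kmt5a and 779 for Phf8, far from the other WT libraries, while Kmt5c groups do not overlap.

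Of the 4 genes tested in mRNA, limma called 0, against 2.71% of all 16813 tested genes. At an unadjusted limma p under 0.05 there were 2, Kmt5a and Kmt5c, against 20.0% of all genes, and on re-estimated reads edgeR and DESeq2 called 0 of them, against 2.83% and 10.6% of all genes. Without WT replicate 3, limma called Kmt5a alone, higher in KO, where 9.69% of 16576 genes were called in either direction, 4.74% being higher and 4.95% lower. Weighting libraries by their fit called Kmt5a, Kmt5b and Kmt5c, and with it 50.0% of all genes.

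The summed levels of macrophage, stellate cell and bile duct markers were higher in every KO library than in any WT library, as with Kmt5c. The summed value of 12 macrophage markers was 8104 to 9685 in WT and 11465 to 25874 in KO, with 2 of 12 called higher and 6 without WT replicate 3. For 12 stellate cell and fibroblast markers it was 4412 to 6213 and 7277 to 8929, with 2 called higher, and 4 higher and 1 lower without that library. For 8 bile duct markers, 7 of them tested, it was 616 to 718 and 1068 to 1982, with 1 called higher with or without that library. For 10 endothelial markers it was 9594 to 10831 and 10460 to 11291, and for 10 lymphocyte markers 134 to 249 and 157 to 515. For 8 neutrophil markers it was 123 to 126 and 94 to 233, and for 7 erythroid markers 23606 to 35737 and 25034 to 45956. Only 4 of the neutrophil and 6 of the erythroid markers passed the filter and were tested. Limma called none in these 4 lists, and called 2 endothelial markers higher without WT replicate 3. The sum of 15 genes of cycling cells was 1373 to 1904 in WT and 4810, 4281 and 1264 in KO, with 2 of 15 called higher and 4 without WT replicate 3. The low sum of KO replicate 3 came with a Ccnd1 value of 347, against 738 to 972 in WT. Its E2f1 value of 78 was also below WT (82 to 88). Its values of Bub1, Aurkb, Birc5, Mcm2, Mcm5 and Ccne1 were inside the WT range. Those of Mki67 (134, against 22 to 70 in WT), Top2a (82, against 26 to 67), Ccnb1, Ccna2, Cdk1, Plk1 and Ccnb2 were above every WT library. No marker in these lists was at 0 in every library. The part of these cells in the values of Kmt5a and Kmt5c was not tested.

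Levels can be compared between genes only per length. Over the union of annotated exons, Kmt5c had 147 ± 14.9 scaled reads per kb (SD, n = 3) in the WT libraries and 215 ± 21.4 (SD, n = 3) in the KO libraries. Kmt5a had 144 ± 51.4 and 208 ± 15.7 (SD, n = 3 each), Kmt5b 40.4 ± 6.0 and 47.8 ± 5.44 (SD, n = 3 each), Phf8 45.9 ± 32.7 and 31.5 ± 6.82 (SD, n = 3 each), and L3mbtl1 1.51 ± 1.36 and 1.43 ± 0.631 (SD, n = 3 each). Per kb, Kmt5b was lower than Kmt5a in 6 of 6 libraries, by 1.93 on the log2 scale, and higher than Phf8 in 5 of 6, all but WT replicate 3, by 0.31. Over all libraries, Kmt5c and Kmt5a lay above 74.6% and 73.9% of tested genes in level per kb. The order was Kmt5c, Kmt5a, Kmt5b, Phf8 and L3mbtl1. Neighbours in it were compared within libraries by a two-sided exact sign-flip permutation test, adjusted over 4 comparisons. Over all 6 libraries, Kmt5c and Kmt5a did not differ beyond their spread (exact p = 0.625, adjusted p = 0.625). Neither did Kmt5b and Phf8, with WT replicate 3 included (exact p = 0.281, adjusted p = 0.375). Kmt5a over Kmt5b and Phf8 over L3mbtl1 held in every library, each at the smallest p that 6 libraries allow (exact p = 0.03125, adjusted p = 0.0625). With the length of the longest coding transcript in place of the exon union, Kmt5a came above Kmt5c, by a log2 difference of 0.36. Kmt5b then lay above Phf8 by 1.02, in 5 of 6 libraries (sign-flip exact p = 0.0625, adjusted p = 0.0625). Over the exon union without WT replicate 3, Kmt5b was above Phf8 in 5 of 5 libraries, by 0.54. That was at the smallest p that 5 libraries allow (sign-flip exact p = 0.0625, adjusted p = 0.0833).

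Nascent RNA addresses whether the genes differed in newly made transcripts. With 1 library per genotype and method there is no test. Ratios are of RPKM plus 0.5, centred on the median gene, and the 95% intervals are from reads and cover counting error only. Reads are also given as CPM, which scales them to library size, WT first. For Kmt5a the EU reads numbered 473 and 310, or 43.7 and 55.5 CPM, a log2 ratio of 0.41 (0.21 to 0.63). In Br it had 104 and 92 reads, or 33.0 and 39.7 CPM, a log2 ratio of 0.26 (-0.15 to 0.69). Both methods thus placed nascent Kmt5a RNA on the same side as its mRNA, though the Br interval includes 0. With the centring, 6621 of 13243 genes lay above 0 in EU and 6618 in Br, so a positive ratio alone does not set a gene apart.

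Kmt5c had 258 and 181 EU reads, 23.8 and 32.4 CPM, a log2 ratio of 0.52 (0.24 to 0.80). In Br it had 158 and 127 reads, 50.1 and 54.8 CPM, and a log2 ratio of 0.13 (-0.22 to 0.48). Its EU ratio was close to its mRNA difference of 0.54, while its Br interval includes 0.

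For Kmt5b and Phf8 the 2 methods gave different values. Kmt5b had 1491 and 1116 EU reads, a log2 ratio of 0.61 (0.50 to 0.73), and 562 and 372 Br reads, a log2 ratio of -0.15 (-0.34 to 0.042). Phf8 had 1569 and 763 EU reads, a log2 ratio of -0.0095 (-0.14 to 0.12), and 213 and 209 Br reads, a log2 ratio of 0.42 (0.14 to 0.70). For L3mbtl1 there was 1 EU read in each library, too few for a ratio, and 11 and 7 Br reads, with a log2 ratio of -0.20 (-1.81 to 1.29).

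Kmt5a, Kmt5b, Kmt5c and Phf8 did not differ 2-fold in either method, nor therefore in both. The ratio of L3mbtl1 in Br was also under 2-fold, and it had no EU ratio. Of 10425 genes with at least 20 reads in each method, 2.08% were higher in both and 1.50% lower. In EU, 19.0% of 13243 genes were at least 2-fold higher in KO and 18.9% at least 2-fold lower, and in Br 7.69% and 7.30%. The central 90% of genes spanned log2 ratios of -2.43 to 2.50 in EU and -1.26 to 1.27 in Br. The ratios of Kmt5a, Kmt5b, Kmt5c and Phf8 in both methods, and that of L3mbtl1 in Br, stood between the 35.8th and the 75.5th percentile of genes. The Br interval of L3mbtl1 reached beyond the central range on both sides.

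**Figure D3:**
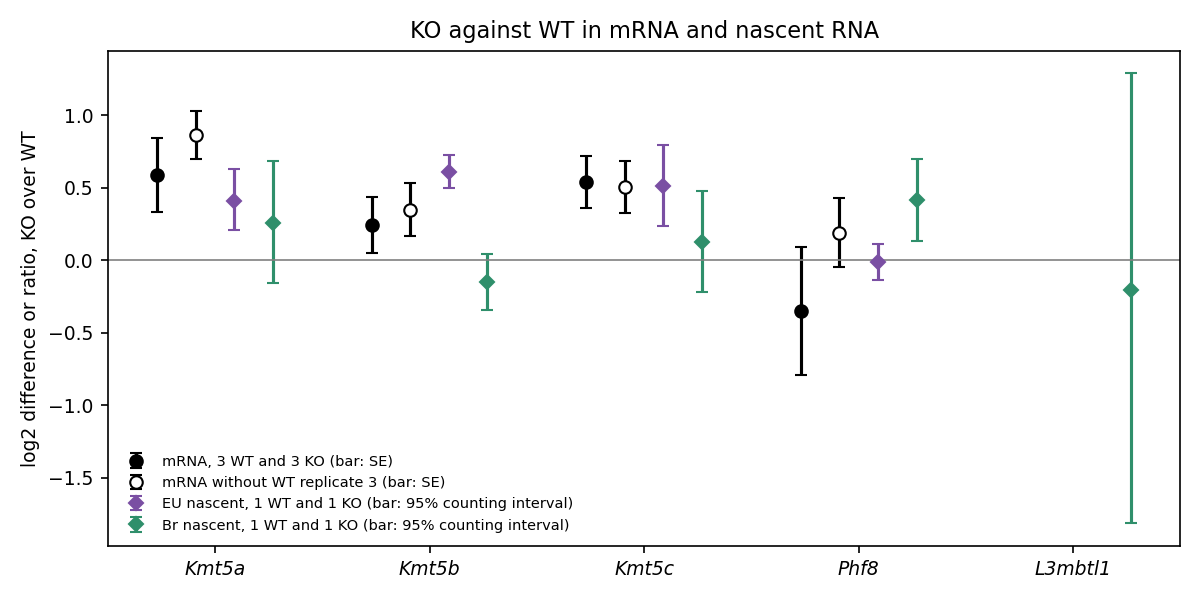
Log2 difference or ratio of KO over WT for each gene in mRNA (black, bars are SE), in mRNA without WT replicate 3 (open) and in EU and Br nascent RNA (diamonds, bars are 95% counting intervals). Kmt5a and Kmt5c are above 0 in all 4 values, Phf8 mRNA moves from -0.35 to 0.19 without WT replicate 3, and L3mbtl1 has a Br value only.

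The nascent methods also weighted the genes differently in WT. Phf8 had 145 CPM in EU and 67.5 in Br, Kmt5b 138 and 178, Kmt5c 23.8 and 50.1, and L3mbtl1 0.0923 and 3.48. Levels of nascent RNA were not compared between genes, because the lengths implied by the deposited RPKM are 2353 bases for Kmt5a, 3432 for Kmt5b, 367 for Kmt5c, 588 for Phf8 and 58 for L3mbtl1, against exon unions of 5307, 14752, 4001, 9318 and 4193 bases.

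Around these genes stand other erasers, readers, the machinery that destroys Kmt5a protein, and partner complexes. Of 75 such genes in 7 lists, 74 had a row and 70 were tested in mRNA. Limma called 1 higher in KO and 0 lower, or 1.43%, against 2.71% of all tested genes in either direction. Of all tested genes, 1.35% were called higher and 1.36% lower (227 and 228 genes, or 294 and 177 with TMM scaling). At an unadjusted limma p under 0.05 there were 15, or 21.4%, against 20.0% of all genes. EdgeR called 2, or 2.86%, against 2.83%, and DESeq2 called 6, or 8.57%, against 10.6%. No share was far above that of all genes. The median log2 difference was 0.015, against 0.0023 for all tested genes.

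The gene called by limma was Cdk1, the mitotic kinase that phosphorylates Kmt5a. It had values of 42, 26 and 20 in WT against 370, 383 and 89 in KO. No KO library overlapped WT, and KO replicate 3 was far lower than the other KO libraries. Cdk1 rose 8.07-fold (log2 3.01, SE 0.58, limma adjusted p = 0.0393). The call was lost without WT replicate 1 (adjusted p = 0.0596), WT replicate 2 (0.139), KO replicate 1 (0.12) or KO replicate 2 (0.191). Its nascent reads were 12 and 24 in EU, a log2 ratio of 1.96 (0.97 to 3.16), and 21 and 30 in Br, 0.95 (0.11 to 1.84). Cdk1 is also one of the cycling genes counted above.

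Among the other 15 tested genes of Kmt5a turnover, limma called none. Over the whole list of 16, edgeR called 2 (Cdk1 and Ccnb1) and DESeq2 called 3 (these and Cdc20), and 4 had an unadjusted limma p under 0.05. Cdc20, an activator of the anaphase-promoting complex, had 39, 7 and 16 in WT against 376, 291 and 55 in KO (limma adjusted p = 0.068). Ccnb1, the cyclin of Cdk1, had 10, 12 and 1 against 185, 256 and 35 (limma adjusted p = 0.0563, and adjusted p = 0.0395 without WT replicate 3). Its nascent reads were 0 (WT) and 21 (KO) in EU and 6 and 10 in Br. The ubiquitin ligase that marks Kmt5a on chromatin was not called by these tools in the parts named here: its substrate adaptor Dtl had 26, 19 and 18 against 38, 37 and 13, Ddb1 had 5395, 5183 and 4867 against 4563, 4208 and 4337, and its scaffold Cul4a had 2638, 2861 and 2138 against 1852, 1655 and 1897 (limma adjusted p = 0.196). The median of the list was 0.11.

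Of 4 other demethylases or candidates, limma called 0, with a median log2 difference of -0.37 and 1 at an unadjusted p under 0.05, and edgeR and DESeq2 called 0. That gene was Kdm7a, a relative of Phf8, with 310, 361 and 486 in WT against 202, 266 and 297 in KO (limma adjusted p = 0.234). Phf2, another relative, had 460, 594 and 390 against 486, 492 and 517.

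Of 15 tested readers, limma called 0, with 4 at an unadjusted p under 0.05, while edgeR called 0 and DESeq2 1 (Phf20). Their median was -0.14. L3mbtl2 and L3mbtl3, the relatives of L3mbtl1, were well detected where L3mbtl1 was not: L3mbtl2 had 596, 453 and 595 in WT against 701, 520 and 540 in KO, and L3mbtl3 179, 137 and 123 against 210, 204 and 272 (limma adjusted p = 0.192). Phf20, a methyl-lysine reader, had 251, 313 and 384 in WT against 165, 151 and 150 in KO, without overlap, as 12.8% of all tested genes were lower without overlap, and did not pass the test (limma adjusted p = 0.0587). With WT replicate 3 left out, Phf20 fell by 0.85 on the log2 scale (limma adjusted p = 0.046), and so did Pwwp3a, listed as Mum1, by 0.71 (limma adjusted p = 0.0408). In nascent RNA the log2 ratio of Phf20 was -0.34 in EU and -0.70 in Br, and that of Mum1 was -2.03 in EU and -0.05 in Br. Trp53bp1, the damage response protein that reads dimethylated lysine 20, had 263, 203 and 274 against 319, 290 and 293 (limma adjusted p = 0.472).

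In the remaining lists limma called 0 of 7 substrates and partners of Kmt5a (1 at an unadjusted p under 0.05), 0 of 12 heterochromatin partners of Kmt5b and Kmt5c (2), 0 of 5 partners of Phf8 (1) and 0 of 11 genes of H4K16 acetylation (2). EdgeR called 0 in each, and DESeq2 called 2 heterochromatin partners (Cbx3 and Uhrf1) and 0 in the others. Medians were 0.40, -0.10, 0.27 and 0.16. Trp53, whose protein Kmt5a methylates, had 407, 287 and 452 in WT against 423, 376 and 326 in KO. Cbx3, an HP1 protein, had 374, 555 and 752 against 289, 277 and 332 (limma adjusted p = 0.135). Hcfc1, a partner of Phf8, had 559, 653 and 804 against 725, 972 and 938 (limma adjusted p = 0.356). Kat8, the main H4K16 acetyltransferase, had 277, 313 and 198 against 373, 410 and 454 (limma adjusted p = 0.154).

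**Figure D4:**
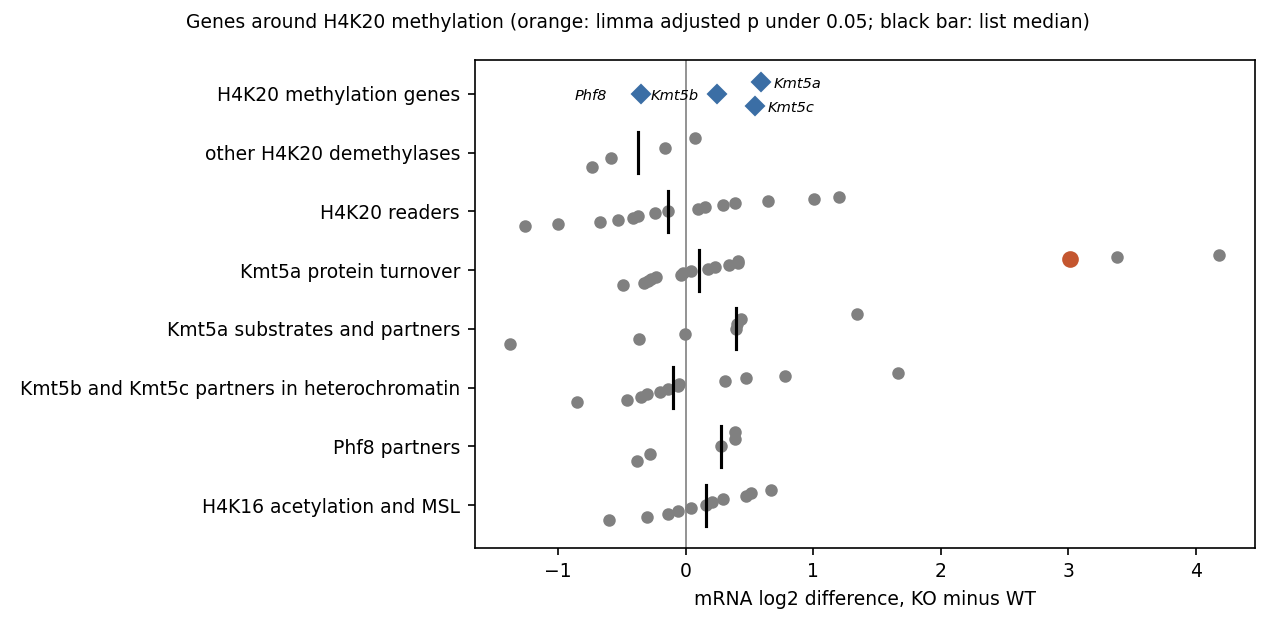
Log2 difference of mRNA, KO minus WT (horizontal axis), for each tested gene of 7 lists around H4K20 methylation and for the 4 tested H4K20 methylation genes (blue diamonds). Cdk1, in orange at 3.01, is the gene called by limma, and the black bars mark list medians between -0.37 and 0.40.

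The genes whose pattern across the 6 mRNA libraries was most like that of each member were ranked by Pearson's r of log2 values among 12289 genes with a mean of at least 50. They were Raver1 (r = 0.996), Tsr2 and Btd (0.995 each) for Kmt5a, and Snx16, Tra2a and E130102H24Rik (0.992 to 0.993) for Kmt5b. For Kmt5c they were Adamtsl2 (0.999), Robo4 (0.992) and Mad2l2 (0.990), and for Phf8 they were Alg11, Commd6 and Rps15a-ps6 (0.994 each). With 6 points that share the libraries and their scaling, high values are common: 88 genes had an r of at least 0.95 with Kmt5a and 220 with Phf8. Without WT replicate 3, Adamtsl2 stayed the closest to Kmt5c, and none of the 3 genes named for Kmt5a, Kmt5b or Phf8 stayed among the closest 3. Raver1 shows the shape of the Kmt5a pattern, with 314, 333 and 588 in WT against 613, 553 and 550 in KO.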

How the data were processed

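Members, lists and tests were chosen with earlier results of these data known. The submitters' processing notes name TopHat2, Bowtie2, Cufflinks, DESeq, MACS2, SICER and mm9. Counter, gene models and strand use: not given in the sources used here. For mRNA the authors deposited a score, reads normalized with DESeq according to the table's name and stored as whole numbers. Nascent files hold deposited counts per gene; every Br count is even and was divided by 2. The authors also deposited RPKM for nascent RNA.

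Limma 3.58.1 in R 4.3.3 (trend, robust) compared log2(value + 1) in those genes that reached 10 in 3 or more libraries. A call means a two-sided p, adjusted by Benjamini-Hochberg, below 0.05, and fold changes are on that scale. Nascent ratios kept genes whose mean RPKM reached 1; intervals are Clopper-Pearson. The fit was run on simulated data with the same scatter for all genes and no library that stood apart. That simulation therefore does not cover a library such as WT replicate 3. Alternatives were edgeR 4.0.16 and DESeq2 1.42.0 on reads re-estimated from the rounding pattern (approximate), pseudocounts, filters, TMM scaling, array weights, a replicate block and each library left out.

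Symbols, lengths and exons came from GENCODE M21 (GRCm38); 32860 of 37583 IDs had a symbol, and 18763 of 19583 RPKM rows matched an ID. The named genes are the 5 members, called list genes (those called without WT replicate 3 included), the 3 genes most like each member, and examples per list chosen after their values were seen.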

Additional observations from a re-analysis of the deposited data

Results flagged for a closer look

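The nascent ratios of Kmt5b and Phf8 had opposite signs in the 2 methods, though that of Phf8 in EU was close to 0 and ran from -0.084 to 0.037 over the alternatives. The log2 ratio of KO to WT for Kmt5b was 0.61 in EU and -0.15 in Br, and that for Phf8 was -0.0095 in EU and 0.42 in Br. With 1 library per genotype and method the difference between methods was not tested. The EU interval of Kmt5b (0.50 to 0.73) and its Br interval (-0.34 to 0.042) do not overlap. Neither do those of Phf8 (-0.14 to 0.12, and 0.14 to 0.70). These intervals cover counting error only. The central range of log2 ratios over genes was wider in EU (-2.43 to 2.5) than in Br (-1.26 to 1.27). The share of all genes whose EU and Br intervals do not overlap was not counted. Whether the lack of overlap is particular to Kmt5b and Phf8 was therefore not tested.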

How the results depend on the processing

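With each library left out, the log2 difference of Kmt5a ran from 0.44 to 0.87 and that of Phf8 from -0.66 to 0.19, and edgeR without WT replicate 3, chosen after seeing the data, gave 0.87 and 0.22. Array weights gave 0.76 for Kmt5a, 0.29 for Kmt5b, 0.48 for Kmt5c and 0.37 for Phf8. Genes called higher and lower in KO were 227 and 228, against 13 to 785 and 15 to 821 with a library left out (fewest without KO replicate 2, most without WT replicate 3), 294 and 177 with TMM scaling, 4250 and 4160 with array weights, 866 and 908 with DESeq2, and 757 and 875 with edgeR without WT replicate 3. The causes were not tested.

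WT and KO libraries of the same replicate number had correlations of deviations of 0.41, -0.24 and 0.20, against -0.39 to 0.27 for differing numbers. Whether the numbers pair the libraries was not tested. The replicate block called 500 and 514 genes, changed no call of a member and called 3 list genes higher and 1 lower. The lists around H4K20 methylation had 1 gene called higher and 0 lower, against 2 higher with a pseudocount of 10, no filter or edgeR, 1 lower with a value of at least 50, 0 to 3 higher and 0 to 2 lower with a library left out, 2 and 2 with edgeR without WT replicate 3, 4 and 2 with DESeq2, and 19 and 15 with array weights. The level order of Kmt5c over Kmt5a turned to -0.36 with the longest coding transcript. The difference of Kmt5b over Phf8 went from 0.31 to 1.02 with that length, and to 0.54 without WT replicate 3. Nascent ratios of the members stayed inside their counting intervals under the 5 alternatives run, that of Phf8 in EU changing sign (-0.084 to 0.037). Depth limits L3mbtl1 in all assays.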

Other observations

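In EU, several genes around H4K20 methylation had large ratios that Br did not share. For Hdac2, a histone deacetylase, EU reads numbered 235 (WT) and 1430 (KO), against 51 and 34 in Br, while its mRNA values were 282, 296 and 277 in WT and 281, 262 and 343 in KO. Suv39h2, an H3K9 methyltransferase, had 69 and 215 EU reads and 39 and 34 Br reads. Rbx1, the RING subunit of cullin ligases, had 66 and 1 EU reads and 77 and 63 Br reads. Of 56 list genes with at least 20 reads in each method, 11 were at least 2-fold higher and 6 at least 2-fold lower in EU, 0 higher and 1 lower in Br, and 0 in both in either direction. In EU these are 19.6% and 10.7% of the list genes, against 17.5% and 18.6% of 10425 genes with as many reads, and in Br the shares over all genes were 4.88% and 3.70%. Of those 10425 genes, 2.08% were higher and 1.50% lower in both.

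Transcripts of 3 other genes, Gm8770, Gm11424 and Gm46559, align to Kmt5a over 100 bases or more at 85% identity or higher. Gm8770, at 92.1% identity over 940 bases, had mRNA values of 7 to 19 and 1 Br read in each library, but 12 EU reads in WT and 101 in KO. Gm11424 had mRNA values of 0 to 7. Reads shared between Kmt5a and these copies were not examined.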
